A study of Mus musculus with 6 samples.

Results

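The 10 genes described here encode cytokines of the TNF and interleukin-1 families, the ligands of the CSF1 receptor, feedback regulators of NF-κB and an inflammasome sensor: Tnf, Il1a, Il1b, Il1rn, Csf1, Il34, Nfkbia, Nfkbiz, Tnfaip3 and Nlrp3. They were chosen by symbol from 56884 genes in the matrices, with earlier results of these data known, and followed through 6 single-cell libraries, the cortex pair first. The cortex libraries came from P12 mice, Nodal lox/lox controls and Nodal iPCKO mutants, and the lung libraries from P21 mice, Bdnf lox/lox and Hgf lox/lox controls and the matching Bdnf iPCKO and Hgf iPCKO mutants, in which CD45+ cells and erythrocytes had been depleted. In the mutants a tamoxifen-inducible Cre driven by a Pdgfrb transgene deletes the gene, and this promoter is active in mural cells and some fibroblasts. All mice, controls included, received 50 µg of tamoxifen on each day from P1 to P3, and the controls carry the floxed alleles without the CreERT2 transgene. Each library pooled cells of 2 mice of 1 genotype and each genotype has 1 library, so no difference has a replicate check, no p-value is given, and every interval covers counting error only.

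TNF and interleukin-1 bind receptors that free NF-κB from its inhibitors in the cytoplasm, after which it enters the nucleus and switches on cytokine genes together with genes that end the response. Nfkbia encodes IκBα, the inhibitor that is made anew after activation, Tnfaip3 encodes the ubiquitin-editing protein A20, and Nfkbiz encodes the nuclear protein IκBζ. Microglia, the resident macrophages of the brain, depend on the CSF1 receptor, whose ligands are CSF1 and IL-34, and are a main source of TNF and interleukin-1 in the brain.

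The promoters of Tnf, Csf1, Nfkbia and Il1b are shown because these genes share a pathway but differed in microglia, as described further on. Each line gives the 250 bases before the start of the Ensembl canonical transcript in GRCm39 (GENCODE vM39), all 4 on the minus strand: Tnf at chr17:35420984-35421233, Csf1 at chr3:107667807-107668056, Nfkbia at chr12:55539433-55539682 and Il1b at chr2:129213060-129213309. Capitals mark matches on either strand to a loose form of the NF-κB motif, GGG and CC with any 5 bases between them.
Tnf: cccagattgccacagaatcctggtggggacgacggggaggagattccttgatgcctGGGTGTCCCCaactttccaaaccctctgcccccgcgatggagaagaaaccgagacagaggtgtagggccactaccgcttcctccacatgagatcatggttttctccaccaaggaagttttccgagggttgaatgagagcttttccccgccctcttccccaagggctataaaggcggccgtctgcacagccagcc
Csf1: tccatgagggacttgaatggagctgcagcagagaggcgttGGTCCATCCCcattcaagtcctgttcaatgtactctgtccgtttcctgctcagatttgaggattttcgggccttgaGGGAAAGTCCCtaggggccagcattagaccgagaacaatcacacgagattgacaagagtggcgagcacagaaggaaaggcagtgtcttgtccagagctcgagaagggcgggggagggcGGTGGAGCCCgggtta
Nfkbia: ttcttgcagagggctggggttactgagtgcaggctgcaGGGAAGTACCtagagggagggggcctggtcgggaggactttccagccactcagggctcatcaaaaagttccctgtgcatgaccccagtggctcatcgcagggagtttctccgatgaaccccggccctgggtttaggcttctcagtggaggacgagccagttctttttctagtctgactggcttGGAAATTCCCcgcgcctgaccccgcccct
Il1b: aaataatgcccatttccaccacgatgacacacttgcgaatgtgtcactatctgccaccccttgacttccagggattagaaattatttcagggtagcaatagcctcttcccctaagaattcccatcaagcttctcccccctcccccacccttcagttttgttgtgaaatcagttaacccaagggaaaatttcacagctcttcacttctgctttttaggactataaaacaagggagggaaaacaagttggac
Tnf holds 1 match, Csf1 4, of which 2 overlap, Nfkbia 2 and Il1b none. The letters are common, since 47.8% of 21770 promoters of protein-coding genes hold a match in the same window, and 6 of the 10 genes do. The AP-1 motif TGANTCA, which reads the same on both strands, stands in 6.17% of promoters and in those of Il1rn and Tnfaip3. Il1a (chr2:129140291-129152098) and Il1b (chr2:129206490-129213059) lie near each other on the minus strand.

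Barcodes with at least 1500 UMIs, or 700 in the Hgf libraries, numbered from 3237 to 24311 per library, and marker genes placed 71.5% to 92.0% of them in 1 cell type. In the lungs 17.3% to 20.2% of barcodes lay near the limit of that assignment, against 3.55% and 3.95% in the cortex. Total UMIs ran from 33889545 to 186701379 per library, and 21 to 457 barcodes were shared between any pair of libraries. Nodal itself was counted 184 times in 273 control cortical pericytes and 0 times in 402 Nodal iPCKO pericytes, which at a limit of 3 UMIs allows up to 1.19 CPM (the UMIs of a gene relative to all UMIs of a group). In lung pericytes Bdnf gave 8 UMIs in 99 control cells and 1 UMI in 114 Bdnf iPCKO cells, 15.4 and 2.53 CPM, the last under the limit of 3 UMIs. Over all cells given a type in that pair Bdnf was at 27.4 and 27.3 CPM, on 2628 and 2468 UMIs. In pericytes of the Hgf pair Hgf gave 23 UMIs in 90 control cells and 10 in 219 Hgf iPCKO cells, 142 and 29.03 CPM.

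Microglia of the Nodal iPCKO cortex held more mRNA for the inflammatory ligands, while Nfkbia, Nfkbiz and Tnfaip3 stayed within 1.5-fold, unlike some further NF-κB regulators and targets given below. Tnf, Il1a, Il1b, Il1rn and Csf1 were past 1.5-fold higher. Of the 9 genes that reached 30 UMIs over the pair, 5 were past 1.5-fold higher and 0 lower, beside 7.3% and 9.52% of the 12953 genes counted the same way. Their median log2 ratio was 0.83, against -0.06 for all genes counted. Il1rn, on 1 and 63 UMIs, passed that limit only through the library where it was high, so the count and the median that include it are a description. With at least 30 UMIs required in each library, a limit added after the data were seen, 4 of 8 genes were higher and 0 lower, beside 4.27% and 6.96% of all genes, and the median was 0.64. The authors had already reported Tnf, Il1a and Csf1 as raised in these microglia, so this count is a description as well. The comparison rests on 872 control and 1407 Nodal iPCKO microglia with medians of 6134.5 and 6421.0 UMIs per cell, in which the 12 microglial markers summed to 33274.8 and 29787.1 CPM.

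**Figure D1:**
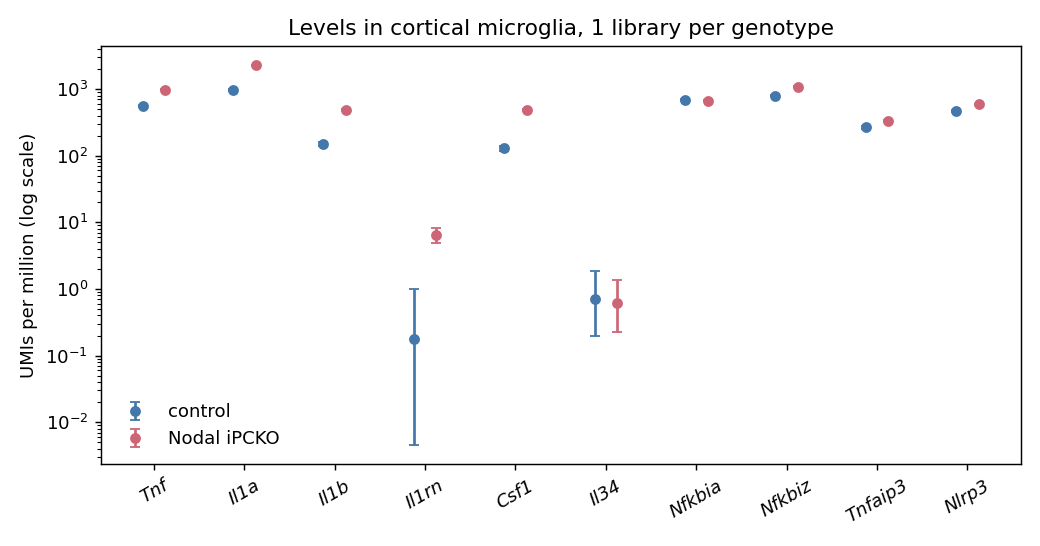
CPM (log scale) of the 10 genes in microglia of the control (blue) and Nodal iPCKO (red) cortex, with exact 95% Poisson intervals, 1 library each. Tnf, Il1a, Il1b, Il1rn and Csf1 are set apart upwards in the Nodal iPCKO library, from 128 to 486 CPM for Csf1, while the points of Nfkbia lie together at 689 and 668.

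Il1a, which encodes interleukin-1α, was at 967 CPM in control microglia (5399 UMIs, 95% interval 941 to 993) and at 2270.1 in Nodal iPCKO microglia (22078 UMIs, 2240.2 to 2300.2). This is a log2 ratio of 1.23 (1.19 to 1.28). Il1b, which encodes interleukin-1β, a cytokine made as an inactive precursor, was at 148 (139 to 159) and 489 (475 to 503), a log2 ratio of 1.72 (1.61 to 1.83). Tnf was at 550.1 (531 to 570) and 978 (959 to 998), a log2 ratio of 0.83 (0.77 to 0.89). In all 3 the intervals of the libraries lay apart.

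Il1rn, which encodes the antagonist of the interleukin-1 receptor, was rare in microglia of both libraries. It gave 1 UMI in the control library and 63 UMIs in 27 cells of the Nodal iPCKO library, 0.18 against 6.48 CPM. The log2 ratio of 5.18 has a counting interval from 2.65 to 10.50, so its size is loosely set.

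The CSF1 receptor ligands differed from each other. Csf1 was at 128 CPM in control microglia (119 to 138) and at 486 in Nodal iPCKO microglia (472 to 500), a log2 ratio of 1.92 (1.81 to 2.04). Il34, in contrast, gave 4 and 6 UMIs, too few to compare. Their receptor Csf1r was at 5008.9 and 4174.7 CPM, a log2 ratio of -0.26 (-0.29 to -0.24).

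Nfkbia, Nfkbiz, Tnfaip3 and Nlrp3 were within 1.5-fold. Nfkbia was at 689 (668 to 712) and 668 (652 to 684), a log2 ratio of -0.05 whose interval, -0.10 to 0.01, spans 0. Nfkbiz was at 798 and 1084.1, a log2 ratio of 0.44 (0.39 to 0.49). Tnfaip3 was at 268 and 331, a log2 ratio of 0.31 (0.22 to 0.40), and Nlrp3, which senses cell damage and starts interleukin-1β maturation, was at 470.3 and 587, a log2 ratio of 0.32 (0.25 to 0.39). These 3 intervals lie above 0 and below the 1.5-fold line.

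The share of microglia with a UMI was higher in the mutant for the ligands as well. Cells were thinned to a common depth of 3000 UMIs, for which 43 control and 75 Nodal iPCKO cells were too shallow. Il1b was then found in 13.03% of control microglia (10.8% to 15.5%, exact binomial interval) and 34.9% of Nodal iPCKO microglia (32.4% to 37.5%), unthinned 18.2% and 41.7%. Csf1 was found in 14.2% and 33.0%, unthinned 21.7% and 42.6%. Il1a was found in 69.2% and 89.0%, unthinned 79.2% and 93.4%, and Tnf in 50.2% and 62.2%, unthinned 63.8% and 73.6%. For Nfkbia the shares were 73.0% and 70.1% and for Nlrp3 65.7% and 70.2%, each with overlapping intervals. Nfkbiz was found in 76.8% and 82.2% and Tnfaip3 in 42.8% and 49.9%, with intervals that lay apart. In astrocytes, not a known main source of these cytokines, unthinned shares were 0.92% and 0.91% for Tnf, 0.92% and 1.94% for Il1a and 0.26% and 0.80% for Il1b at medians of 10008.0 and 10658.0 UMIs, and every microglial share of these 3 genes is above them.

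Cells with several ligands were more frequent in the mutant, as the higher share of each ligand alone implies, and no count expected from the single shares was computed. Among Tnf, Il1a, Il1b and Csf1, none was found in 16.8% of control and 4.96% of Nodal iPCKO microglia at 3000 UMIs. At least 3 of the 4 gave a UMI in 89 and 20 control cells (3 and 4 ligands) and in 384 and 146 Nodal iPCKO cells. Csf1 was found in 24.1% of control cells with Il1b and 12.8% of those without, and in 42.6% and 27.8% of Nodal iPCKO cells. The ligand transcripts differed in how evenly they were spread. The tenth of cells richest in Csf1 held 83.0% of its UMIs in the control and 70.8% in the Nodal iPCKO library, against 30.5% and 34.7% for Nfkbia. For Il1b this was 89.6% and 59.35%, for Tnf 52.5% and 55.7%, and for Il1a 46.8% and 35.8%. Of the Il1a values only that of the Nodal iPCKO library was near Nfkbia. Such a share is larger where few cells hold a UMI, unthinned 21.7% and 42.6% for Csf1 and 85.2% and 83.5% for Nfkbia.

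**Figure D2:**
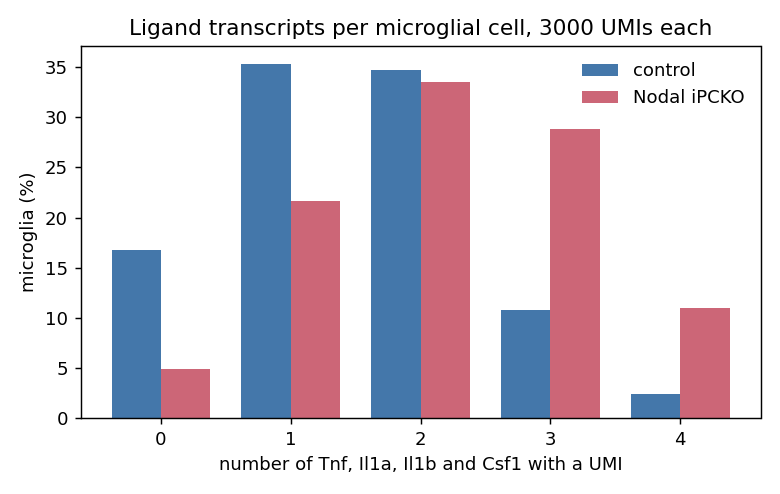
Percent of microglia (y axis) by how many of Tnf, Il1a, Il1b and Csf1 gave a UMI in a cell thinned to 3000 UMIs (x axis), control in blue and Nodal iPCKO in red. Cells with none make up 16.8% of control and 4.96% of Nodal iPCKO microglia, and cells with all 4 make up 2.41% and 11.0%.

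Cells with genes of disease-associated microglia held high cytokine levels, in the control on 6 cells only. A set with UMIs of at least 2 of Clec7a, Itgax, Cst7, Gpnmb, Spp1 and Lpl after thinning, chosen after the data were seen, made up 6 control cells (0.72%) and 91 Nodal iPCKO cells (6.83%). In these cells Tnf was at 1783.0 and 1844.8 CPM, Il1a at 3304.3 and 3049.4 and Il1b at 949 and 1050.8, each with an interval of the ratio that spans 0, and Csf1 at 474 and 869.7, a log2 ratio of 0.88 (0.34 to 1.46). These intervals leave out the spread between cells, so on 6 control cells they show neither likeness nor difference. In the remaining 823 and 1241 cells the log2 ratio was 1.65 for Il1b, 1.86 for Csf1, 1.23 for Il1a and 0.75 for Tnf, all still past 1.5-fold.

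Immediate-early and heat shock genes that tissue dissociation can induce were within 1.5-fold or lower in Nodal iPCKO microglia. Their list holds none of the genes described here, so it does not show whether the ligands themselves respond to dissociation. The part of dissociation in the ligand values was not tested. Of 16 such genes, among them Fos with a log2 ratio of 0.16, 0 were past 1.5-fold higher and 2 were lower, Jun at 1507.7 and 979 CPM and Egr1 at 532 and 349, with a median log2 ratio of -0.20. A UMI of Fos or Egr1 was found in 86.9% of control and 85.6% of Nodal iPCKO microglia. The 114 control and 202 Nodal iPCKO microglia without one were also chosen after the data were seen. In these, Il1b had a log2 ratio of 1.86 and Csf1 of 1.94, Il1a one of 0.82 and Tnf one of 0.34, the last no longer past 1.5-fold. Markers of neutrophils or monocytes summed to 215 and 186 CPM in the microglial gate against 43848.6 and 16093.4 in their own few cells, with 2 and 3 of 9 at 0, and those of border macrophages to 116 and 79.5, with 2 of 8 at 0 in each library.

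The rest of the pathway was mostly within 1.5-fold in microglia, where 7.3% of all genes counted were past it higher and 9.52% lower. None of 11 NF-κB subunits and kinases was past 1.5-fold, with Nfkb1 at a log2 ratio of 0.51, Nfkb2 at 0.17, Rela at 0.07, Relb at 0.36 and Rel at 0.11. Of 8 receptors counted, 1 was past 1.5-fold, Il1r1 with 10 and 28 UMIs and an interval from -0.40 to 1.89, while Tnfrsf1a (-0.15), Tnfrsf1b (-0.25) and Il1rap (0.09) were not, and Il1r2 had 2 and 15 UMIs. Of 14 adaptors 1 was higher, Irak3, on 11 and 33 UMIs. Il1r1 and Irak3 had under 30 UMIs in at least 1 library, and with 30 in each 0 of 6 receptors and 0 of 11 adaptors were past 1.5-fold. Of 16 further NF-κB regulators and targets counted 5 were higher and 0 lower, above the 7.3% of all genes that were higher. With 30 UMIs in each library the count was the same. Among the 5 were Gadd45b, from 20.1 to 75.3 CPM, Tnfaip2, from 26.7 to 87.4, Tnip1, an A20-binding protein, from 24.0 to 66.6, and Nfkbie, from 39.0 to 71.1. Casp4, the caspase of the non-canonical inflammasome, was the 1 of 12 inflammasome genes past 1.5-fold, at 75.9 and 145.5, and Tnfsf13b, which encodes BAFF, the 1 of 3 further TNF family ligands, at 7.34 and 24.1.

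Across cortical cell types the 10 genes had distinct patterns. Tnf, Il1a, Il1b and Nlrp3 were found in microglia and border macrophages, the latter 30 and 27 cells. Nlrp3 was at 470.3 and 587 CPM in microglia, at 417 and 315 in border macrophages and between 0.67 and 1.52 in astrocytes, neurons, endothelial cells, pericytes and fibroblasts of either library. Among types with at least 50 cells, Csf1 was spread, with fibroblasts highest in the control at 232 (207 to 260), then microglia at 128 and astrocytes at 113, whose intervals of 119 to 138 and 105 to 121 touch, then endothelial cells at 61.7 and pericytes at 17.2. In the Nodal iPCKO library microglia at 486 came first. Il34 was led by pericytes at 199.7 and 207, then fibroblasts at 123 and 102, vascular smooth muscle cells (32 and 43 cells, 15 and 17 UMIs) at 51.5 and 52.3 and neurons at 25.8 and 29.2, and it lay between 0.48 and 1.17 in microglia, astrocytes and endothelial cells. Nfkbia was highest in endothelial cells, at 1227.8 and 1349.6. Border macrophages carried Tnf at 479 and 249, Il1a at 44.4 and 127 and Il1b at 97.6 and 264.

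**Figure D3:**
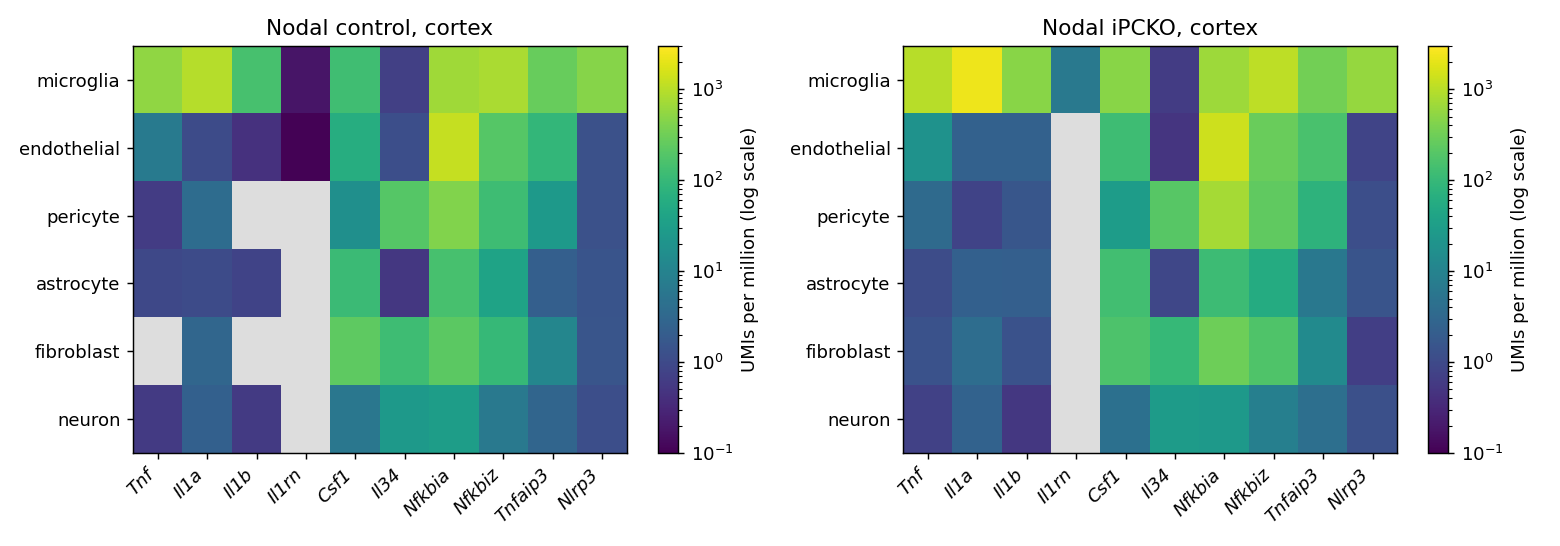
CPM (colour, log scale) of the 10 genes (columns) in 6 cell types (rows) of the control (left) and Nodal iPCKO (right) cortex, grey where no UMI was counted. Tnf, Il1a, Il1b and Nlrp3 are bright in the microglia row alone among the types drawn, Il34 in pericytes, fibroblasts and neurons, and Nfkbia is brightest in endothelial cells.

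The genes most like each pattern, by Pearson r of log2(CPM + 1) over 12 library and cell type groups of the cortex, were Slc39a4 (0.99), Neurl3 (0.99) and Rnf2 (0.99) for Tnf, Igsf6, Cd300lf and Cd48 (all 0.99) for Il1b, Erap1 (0.94), Lonrf3 (0.94) and Cd9 (0.93) for Csf1, Npy1r, 2310030G06Rik and Adamts17 (all 0.98) for Il34, and Elf1, Rela and Wasf2 (all 0.98) for Nfkbiz. Groups of a library share its depth, and this is a description. Over 43 lung groups the first were Crtap (0.89) for Csf1, Baiap3 (0.85) for Il34 and Spty2d1 (0.83) for Nfkbiz.

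In pericytes of the Nodal iPCKO cortex, 402 cells against 273, the 3 NF-κB feedback genes were past 1.5-fold higher. With Csf1, on 27 and 75 UMIs, they made 4 of the 5 genes counted, beside 7.03% of all genes. With 30 UMIs in each library 3 of 4 were higher, and the share of all genes at that limit stands below for 5 cell types together. Nfkbia was at 429 and 746.5 CPM on 674 and 1878 UMIs, a log2 ratio of 0.80 (0.67 to 0.93). Nfkbiz was at 123 and 243, a log2 ratio of 0.99 (0.75 to 1.23), and Tnfaip3 at 25.4 and 77.1, a log2 ratio of 1.60 (1.10 to 2.13). Csf1 was at 17.2 and 29.8, a log2 ratio of 0.80 (0.14 to 1.49) that was 0.55 with a stricter gate, while Il34 was at 199.7 and 207, a log2 ratio of 0.05 (-0.15 to 0.26). The pericyte ratios of Nfkbia, Nfkbiz and Tnfaip3 were above those of microglia with intervals that lay apart, a difference that was not tested. Of 9 NF-κB subunits and kinases counted in pericytes 3 were past 1.5-fold higher, beside 7.03% of all genes. These were Nfkb2 on 13 and 44 UMIs, Rel on 14 and 42 and Relb on 18 and 46, the last with an interval from -0.14 to 1.55. Of 12 further regulators and targets counted 4 were higher and 0 lower, beside the same 7.03% for higher. Among the 4 were Birc3, from the cIAP family, at 10.8 and 25.4 and Zc3h12a, an RNase that degrades cytokine mRNA, on 11 and 43 UMIs. All 7 of these higher subunits, regulators and targets had under 30 UMIs in the control library, and Zc3h12a, Nfkbid and Bcl3, at 9 to 11 there, reached the limit only through the higher Nodal iPCKO count. With 30 UMIs in each library 0 of 5 subunits and kinases and 0 of 5 further regulators and targets were past 1.5-fold. Microglial markers summed to 126 and 97.0 CPM in the pericyte gate and fibroblast markers to 1607.6 and 1725.9, and their part in these values was not tested. Barcodes under 200 UMIs held Csf1 at 80.8 and 172, Tnfaip3 at 107.8 and 140.5, Nfkbiz at 320.9 and 398.4 and Nfkbia at 740.1 and 746.8 CPM. The part of that RNA in the pericyte values was not tested.

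In endothelial cells, 813 and 1463, 5 of 7 genes counted were past 1.5-fold higher, beside 4% of all genes. Il1a, on 10 and 40 UMIs, and Il1b, on 4 and 40, reached the limit only through the Nodal iPCKO library, where they were high, so that count is a description. Without them, as with 30 UMIs in each library, 3 of 5 were higher. The share of all genes at the limit in each library stands below for 5 cell types together. Csf1 was at 61.7 (56.7 to 66.9) and 124 (118 to 129), a log2 ratio of 1.004 (0.87 to 1.14), and Tnfaip3 at 93.5 and 156, a log2 ratio of 0.74 (0.63 to 0.85). Nfkbia, with a log2 ratio of 0.14, and Nfkbiz, with 0.57, were within 1.5-fold. Of 11 subunits and kinases 3 were higher, Relb at 19.8 and 30.5, Rel at 21.3 and 34.9 and Map3k14 on 7 and 36 UMIs. Of 16 further regulators and targets 5 were higher and 0 lower. Both counts of higher genes stand beside the same 4% of all genes. Map3k14 passed the limit only through the library where it was high, and with 30 UMIs in each library 2 of 9 subunits and kinases and 4 of 14 further regulators and targets were higher. The other 3 of the 5 genes past 1.5-fold were cytokines at low levels: Tnf at 6.83 and 19.0, Il1a at 1.07 and 2.41, and Il1b at 0.43 and 2.41. Microglial RNA reaches this gate, where the 12 microglial markers had a median of 0.15% and 0.14% of their microglial level and a highest value of 1.04% and 1.12%. Il1a stood at 0.11% of its microglial level in each library and Il1b at 0.29% and 0.49%, within that range, and the part of this RNA in their values was not tested. With Leiden clusters in place of the gate the Il1a ratio reversed to -0.68. Tnf stood at 1.24% and 1.94%, above it. Barcodes under 200 UMIs, which hold mostly free RNA, also carried more of the ligands in the Nodal iPCKO library, with Tnf at 76.7 and 127, Il1a at 122 and 299, Il1b at 18.9 and 63.6 and Csf1 at 80.8 and 172 CPM. Their part in the endothelial Tnf and Csf1 values was not tested.

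Over the 5 cortical types other than microglia, 11 of 25 values were past 1.5-fold higher and 0 lower, beside 5.95% and 6.83% of all values, and 9 of 23 were higher without endothelial Il1a and Il1b. With 30 UMIs in each library 7 of 18 were higher and 0 lower, beside 2.44% and 4.11% of all values, and the astrocyte value was not among them. Astrocytes contributed 1 of 4, beside 5.33% of all genes, Tnfaip3 on 17 and 56 UMIs, while Csf1 was at 113 and 135. In astrocytes 10 of the 16 genes that dissociation can induce were past 1.5-fold higher, among them Fos at 1755.1 and 3131.6 and Egr1 at 477 and 1003.7. The authors count Fos and Egr1 among the reactive astrocyte genes raised in this mutant. They also report more FOS in mutant astrocytes by staining of brain sections. The part of dissociation in the astrocyte value was not tested. In pericytes 1 of these 16 genes was higher and in endothelial cells 0. Fibroblasts had Nfkbiz at 99.9 and 178, and neurons none past 1.5-fold.

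**Figure D4:**
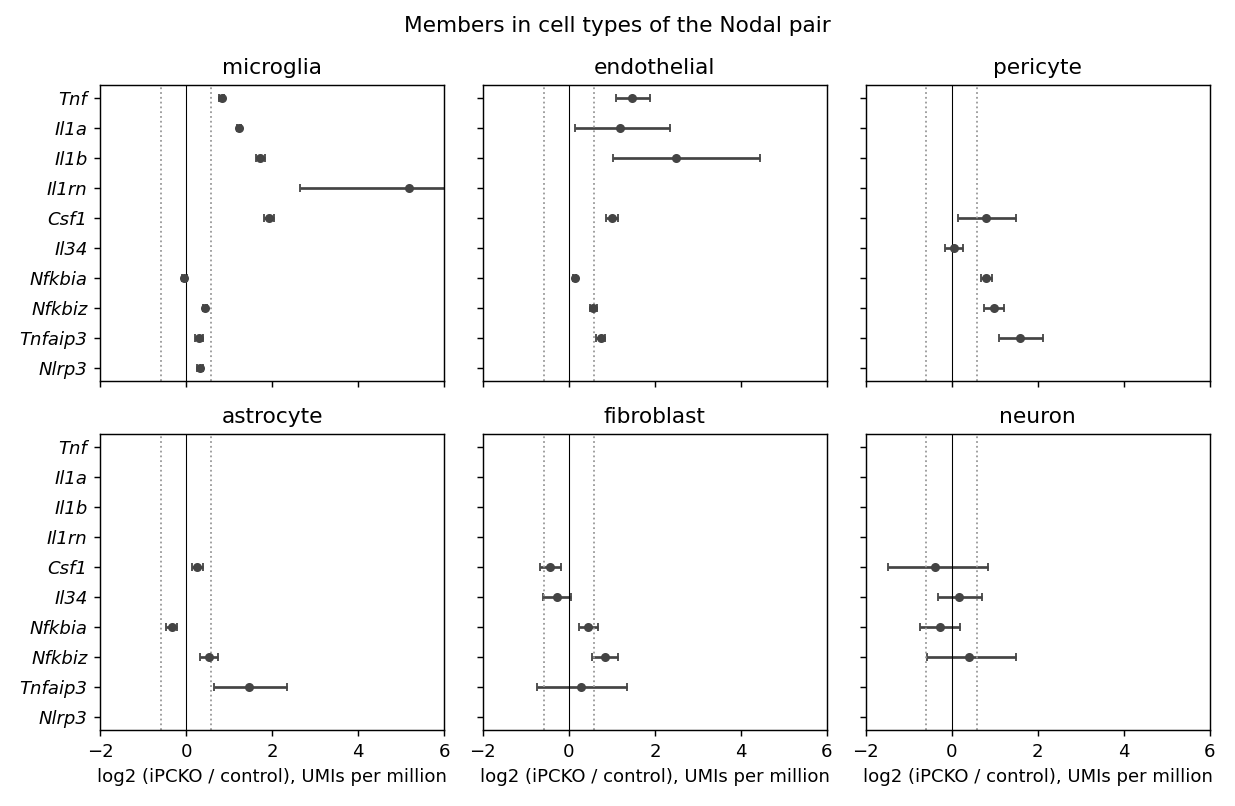
Log2 ratio of CPM, Nodal iPCKO over control (x axis), of each gene with at least 30 UMIs (y axis) in 6 cortical cell types, with exact 95% counting intervals, and dotted lines at 1.5-fold. In microglia the ligands lie beyond the line and the 4 genes from Nfkbia to Nlrp3 within it, and in pericytes Nfkbia, Nfkbiz and Tnfaip3 lie beyond it at 0.80, 0.99 and 1.60. The interval of Il1rn runs past the axis to 10.50.

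The lungs had been depleted of CD45+ cells, and few leukocytes, the usual source of these cytokines, were placed by their markers. The few mast or basophil cells that remained, 38 and 20 in the Bdnf pair and 44 and 19 in the Hgf pair, were rich in the group. Csf1 was at 2451.0 and 1387.0 CPM in the Bdnf pair and at 2478.3 and 412 in the Hgf pair, and Nlrp3 at 2748.4, 3296.7, 3023.5 and 1412.4. Il1b was at 1207.5 and 1066.9 in the Bdnf pair and at 326 and 55.6 in the Hgf pair, the last on 5 UMIs. Tnf was at 729.9 and 245 and at 255 and 989.8, and Nfkbia lay between 2816.6 and 4574.2 in the 4 libraries. Il1a and Il1rn gave no UMI in any of them, which at the limit of 3 UMIs allows up to 33.4 CPM in the shallowest. With under 50 cells these are levels, not comparisons.

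Elsewhere in the lung, Csf1 was led by adventitial fibroblasts among types with at least 50 cells in both control libraries, at 202 and 182 CPM in the Bdnf and Hgf controls, ahead of smooth muscle cells at 83.8 and 125 (77 and 47 cells) and endothelial cells at 74.2 and 101. Mesothelial cells, 19 in the Bdnf control and 87 in the Bdnf iPCKO library, stood above all of these at 490.1 and 394. Il34 was again led by pericytes, at 86.9 and 67.7, ahead of alveolar type 2 (AT2) cells at 17.6 and 22.2. Barcodes under 200 UMIs held Il34 at 52.0 and 57.8, above every type but the pericytes. Among types with at least 50 cells Nfkbiz was highest in myofibroblasts, at 628 and 693, beside 465 and 347 in barcodes under 200 UMIs. Nfkbia was led by myofibroblasts in the Bdnf control at 546 and by endothelial cells in the Hgf control at 517, where myofibroblasts, on 78 UMIs, were at 491. Tnf, Il1b, Il1rn and Nlrp3 were at or under 10.1 CPM in every type with at least 50 cells of all 4 lung libraries, and none was counted in a comparison.

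In the Bdnf pair 5 of 42 values were past 1.5-fold higher and 4 lower, beside 9.65% and 6.65% of all values, a share near the background. Csf1 was lower in AT2 cells, at 11.5 and 5.62 CPM, a log2 ratio of -1.03 (-1.27 to -0.80), and Nfkbiz was higher in AT1 cells, at 24.4 and 44.4. Il34 was lower in club cells, on 57 and 44 UMIs at 13.2 and 6.60, while it was at 52.0 and 33.8 in barcodes under 200 UMIs, whose part was not tested. In pericytes, the cells the Cre targets, Csf1, Il34, Nfkbia and Nfkbiz were counted on 17 to 66 UMIs and all had intervals that span 0. In the endothelium Nfkbia was at 412 and 481, a log2 ratio of 0.23, and 6 of 16 dissociation genes were past 1.5-fold higher there, as were 10 of 15 in pericytes.

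In the Hgf pair 8 of 31 values were past 1.5-fold higher and 8 lower, beside 15.8% and 16.5% of all values, and with 30 UMIs in each library 7 and 5 of 25, beside 11.6% and 12.6%. Nfkbia made up 5 of the 8 higher values, and it was also higher in barcodes under 200 UMIs, at 204 and 383, whose part was not tested. In endothelial cells it was at 517 (6292 UMIs) and 1003.0 (13996 UMIs), a log2 ratio of 0.96, in pericytes at 228 and 583.5, a log2 ratio of 1.36 (0.85 to 1.91), and in ciliated cells at 153 and 331, a log2 ratio of 1.11 (0.86 to 1.37). In myofibroblasts it was lower, at 491 and 317, a log2 ratio of -0.63 (-1.01 to -0.24) that was -0.52 with median-of-ratios scaling. The values of AT1 and club cells, 0.63 and 0.72, were 0.53 and 0.51 with a stricter gate and 0.47 and 0.43 with Leiden clusters, so they were no longer past 1.5-fold. Of 16 dissociation genes 1 was past 1.5-fold higher in endothelial cells of this pair. Il34 in pericytes was at 67.7 and 163 on 11 and 56 UMIs, a log2 ratio of 1.26 (0.32 to 2.35) that was 0.48 with Leiden clusters, and in club cells at 13.3 and 6.52, with 57.8 and 30.2 in barcodes under 200 UMIs. Neither Il34 value had 30 UMIs in each library. Csf1 in AT1 cells was lower, at 31.3 and 11.3, a log2 ratio of -1.47 (-2.06 to -0.92). It was lower in adventitial fibroblasts as well, at 181.9 and 112.3 on 204 and 42 UMIs, a log2 ratio of -0.695 (-1.21 to -0.21). In AT2 and endothelial cells Csf1 was within 1.5-fold. Tnfaip3 in AT1 cells was higher, on 59 and 98 UMIs, a log2 ratio of 1.13 (0.65 to 1.62).

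Endothelial Il1a was lower in the Hgf iPCKO lung, with 104 and 7 UMIs, 8.54 and 0.50 CPM, a log2 ratio of -4.09 (-5.44 to -3.00) that was -3.21 with a stricter gate. It passed the limit of 30 UMIs only through the control library, where it was high, and is not among the values with 30 UMIs in each library. In the Bdnf pair it was at 15.4 and 11.5, a log2 ratio of -0.42 (-0.67 to -0.17). The transcripts sat in endothelial cells with UMIs of at least 2 of Car4, Ednrb, Apln, Fibin and Tbx2, genes of the aerocyte capillary cell, a split made after the data were seen. In these cells Il1a was at 55.7 and 32.2 in the Bdnf pair and at 23.0 and 1.43 in the Hgf pair, over 1198 control and 1731 Hgf iPCKO cells, and the cause of the difference was not tested. In the other endothelial cells it was at 2.36 and 3.38 in the Bdnf pair and on 8 and 0 UMIs in the Hgf pair. Csf1 had the opposite place, at 42.8 in cells with aerocyte genes and 84.2 in the others of the Bdnf control and at 53.4 and 126 in the Hgf control.

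**Figure D5:**
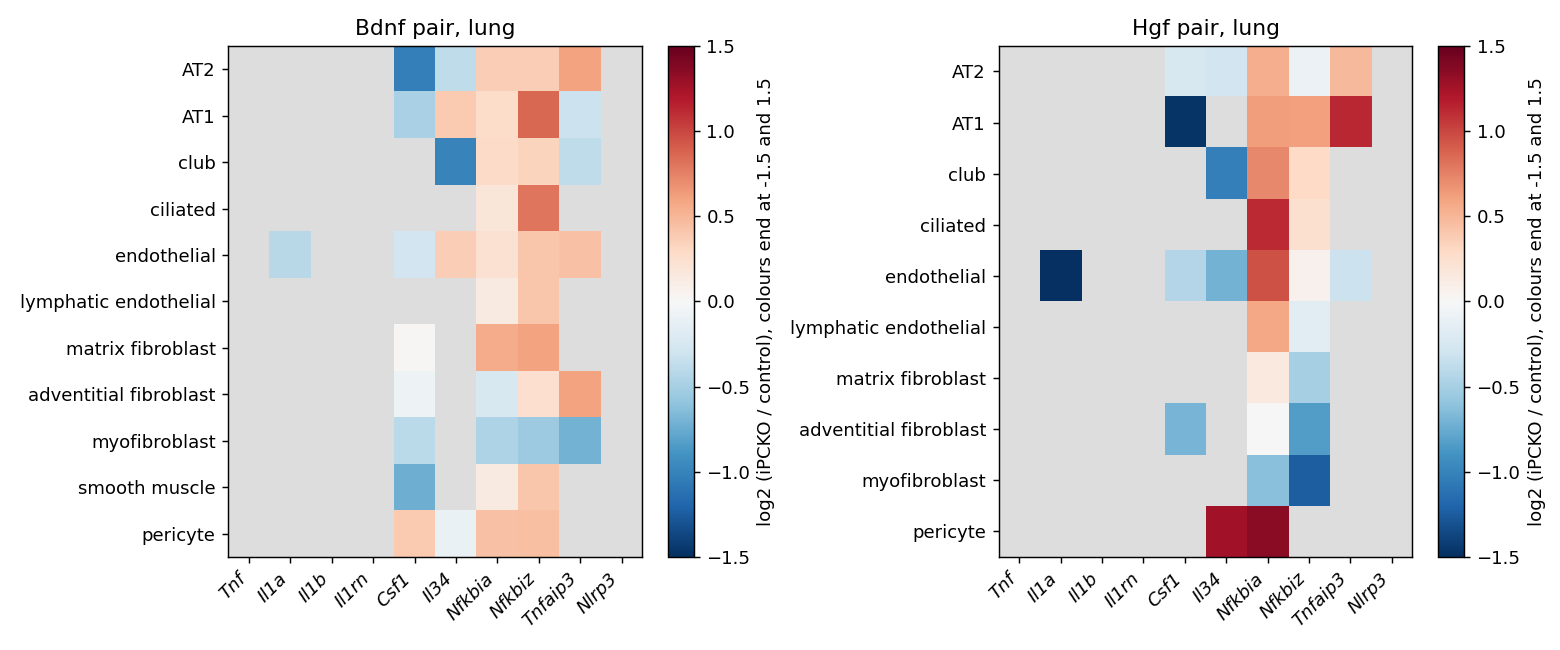
Log2 ratio of CPM, iPCKO over control (colour, ending at -1.5 and 1.5), of the 10 genes (columns) in lung cell types (rows) of the Bdnf (left) and Hgf (right) pairs, grey where fewer than 30 UMIs were counted. Endothelial Il1a of the Hgf pair lies beyond the colour range at -4.09, and the Nfkbia column of that pair is red in 5 cell types past 1.5-fold.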

How the data were processed

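BD Rhapsody single-cell libraries of mouse cortex and lung were analysed, 6 in all. The deposited matrices hold expected counts of UMIs: the authors aligned reads with STARsolo (STAR 2.7.10a, per the labels) to GRCm39 with Gencode annotation, kept all barcodes without a cell filter and divided multi-mapping reads by expectation maximization. The values carry no normalization. Counts were rounded for exact intervals.

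A marker was positive with a UMI above its level in barcodes under 200 UMIs. A barcode took the cell type with the highest share of positive markers, with at least 3 positive and the next type at 0.5 of it or less. Doublets were removed only by this limit. Endothelial markers did not count against lymphatic cells, nor microglial ones against border macrophages. UMIs were summed per library and type and given as CPM. Genes with at least 30 UMIs in a pair and types with at least 50 cells in each library were compared, and past 1.5-fold was counted. Intervals (95%) are exact Poisson, Clopper-Pearson and conditional binomial. A count of 0 was set to 3 UMIs, and no ratio was formed where both counts were 3 or fewer. The ratios were tested on simulated data. All 10 genes are named. From each further list, up to 4 genes with the largest ratio past 1.5-fold in microglia are named, plus 6 receptors and 5 NF-κB subunits. Genes of these lists named in other cell types, and mast, mesothelial and border macrophage cells, were chosen after their values were seen. The genes and lists were chosen with earlier results of these data known. Tools were numpy 2.4.6, scipy 1.17.1, scanpy 1.11.5 and leidenalg 0.10.2. Alternatives were a doubled UMI minimum, a stricter gate, Leiden clusters, Scrublet, a 20% mitochondrial limit, median-of-ratios scaling, no low-count filter, 2-fold and thinning.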

Additional observations from a re-analysis of the deposited data

Results flagged for a closer look

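Some genes were past 1.5-fold higher in one cell type and lower in another of the same pair. These opposite directions were not tested, since each genotype has 1 library. In the Bdnf pair Tnfaip3 had a log2 ratio of 0.61 in AT2 cells and 0.60 in adventitial fibroblasts and of -0.71 in myofibroblasts, the last -0.38 with a stricter gate and -0.54 with Leiden clusters. In the Hgf pair Il34 had a log2 ratio of 1.26 in pericytes, -1.03 in club cells and -0.71 in endothelial cells, the last with an interval from -1.49 to 0.06. Nfkbia had log2 ratios of 0.63 in AT1, 0.72 in club, 1.11 in ciliated and 0.96 in endothelial cells and 1.36 in pericytes, against -0.63 in myofibroblasts. The myofibroblast value, on 78 and 234 UMIs, was within 1.5-fold with median-of-ratios scaling. The AT1 and club values were within it with a stricter gate and with Leiden clusters. Nfkbiz had log2 ratios of 0.62 in AT1 cells, -0.84 in adventitial fibroblasts and -1.24 in myofibroblasts.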

How the results depend on the processing

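No paired analysis was possible because each genotype has 1 library. The 5 genes higher and 0 lower in microglia stayed within 1.5 times of these counts with a doubled UMI minimum, a stricter gate, Leiden clusters, Scrublet, a mitochondrial limit, other scaling, no low-count filter and 2-fold, where 4 were higher. These counts include Il1rn, which passed the limit only through the library where it was high. With 30 UMIs required in each library, added after seeing the data, 4 genes were higher and 0 lower in microglia with a median log2 ratio of 0.64, 7 values were higher in other cortical types, and 5 were lower in the Hgf pair. Of the values past 1.5-fold in any cell type that could be counted again, 40 of 41 stayed past it the same way with a doubled UMI minimum, 32 of 38 with a stricter gate, 26 of 33 with Leiden clusters, 38 of 41 with median-of-ratios scaling and all 41 with Scrublet and with the mitochondrial limit. The microglial median log2 ratio of 0.83 was 0.90 with median-of-ratios scaling, 0.64 with no low-count filter, which adds Il34, and, in settings chosen after seeing the data, 0.75 without cells with disease-associated genes and 0.34 without cells with a Fos or Egr1 UMI, where 3 genes of 8 counted remained past 1.5-fold. With Leiden clusters, 2 values were lower in other cortical types, 3 higher in the Bdnf pair and 4 lower in the Hgf pair, and endothelial Il1a of the Nodal pair reversed to a log2 ratio of -0.68; the cause was not tested. Median-of-ratios scaling left 3 higher in the Bdnf pair. Without the low-count filter, which lets more values in, 3 were lower in other cortical types, 8 higher and 7 lower in the Bdnf pair and 16 higher and 13 lower in the Hgf pair. At 2-fold, 6 were higher in other cortical types, 0 higher and 1 lower in the Bdnf pair and 4 higher and 4 lower in the Hgf pair. These counts at other settings are given without the share over all genes, so they are a description only. Thinning lowered each share of microglia with a UMI, in the control to 50.2% for Tnf, 69.2% for Il1a, 13.03% for Il1b, 0% for Il1rn, 14.2% for Csf1, 0.12% for Il34, 73.0% for Nfkbia, 76.8% for Nfkbiz, 42.8% for Tnfaip3 and 65.7% for Nlrp3, and in the Nodal iPCKO library to 62.2%, 89.0%, 34.9%, 0.45%, 33.0%, 0.15%, 70.1%, 82.2%, 49.9% and 70.2% in the same order.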
